A study of Xenopus tropicalis with 12 samples.

Results

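In the intestine of Xenopus tropicalis tadpoles, 57 genes had a mean at least 2 log2 units higher in the libraries with column label T3WT than in contWT, and had contHomo and T3Homo means within 0.5 log2 units of each other, both after 0.5 CPM was added. They were selected on the measured group means of these same libraries, from the 19921 genes of the count table. A gene was a member where its highest group mean was at least 2 CPM (read counts scaled to a common library size), its log2 ratio of T3WT to contWT was at least 2, its log2 ratio of T3Homo to contHomo lay within 0.5 of 0, and its log2 ratio of contHomo to contWT was below 0.5. Each ratio was taken after adding 0.5 CPM to both means. The choice used the means of all 4 groups, so the levels and ratios of the members are given as a description. Counts of members called by a test across all genes are printed only beside the share of all genes called, and support nothing about the members.

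The study measured RNA in whole intestine from tadpoles at stage 52 to 54, of wild type or of TRα(-/-) genotype and born to the same parents, kept without added hormone or in 10 nM thyroid hormone (T3) for 18 h. By the column labels, contWT was wild type without T3, T3WT was wild type with T3, contHomo was TRα(-/-) without T3 and T3Homo was TRα(-/-) with T3. Each group had 3 libraries, described as technical replicates of 1 RNA sample merged from several tadpoles, so the spread below is that of libraries from 1 pool and holds no difference between animals. How the TRα(-/-) allele was made, and whether the pools held equal numbers of tadpoles, is not given in the sources used here.

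The labels did not all name the same groups. For 6 of the 12 libraries, in 2 groups, the sample title and treatment label differed from the column label: titles gave the contHomo columns as T3-treated wild type, and the T3WT columns as untreated TRα(-/-). The contWT and T3Homo libraries carried the same genotype and treatment in both. By the column labels, the members are genes higher with T3 in the wild type whose TRα(-/-) means with and without T3 lay close together once 0.5 CPM was added. At low levels that addition hides larger ratios, and 16 members had at most 3 counts in each Homo group. By the titles, they are genes higher in untreated TRα(-/-) intestine than in the other 3 groups. The receptor gene could not be looked up, because the table gives only gene IDs and 0 of them matched the reference table of 28858 genes, so no measurement here decides between the readings. The groups are called by their column labels throughout, and every direction drawn from T3WT or contHomo depends on them.

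T3 acts through thyroid hormone receptors, nuclear receptors that bind DNA as partners of retinoid X receptors. In the absence of hormone the receptor can hold target genes down with corepressors, and with hormone it recruits coactivators that raise their transcription. In frog tadpoles TRα is the receptor made broadly before metamorphosis, whereas the TRβ gene is itself raised by T3. The hormone drives the remodelling of the intestine, in which larval epithelium dies and adult epithelial stem cells appear. No member could be assigned to one of these roles, as none had a gene name, and neither the tissue nor the pathway could be checked by marker genes. In whole tissue, fewer cells of a type and less RNA per cell cannot be told apart.

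The libraries held 34322099 to 44755390 counts assigned to genes. The scaling factors of the trimmed mean of M values (TMM) were 1.21 to 1.22 in the T3WT libraries and 0.913 to 0.957 in the other 9. The T3WT libraries also had more genes with a count, 15236 to 15327 against 14751 to 14888. The part of this shift in the results was not tested. With total-count scaling in place of TMM, the median log2 ratio of T3WT to contWT over all 13172 genes tested was 0.39, against 0.04 with TMM, and the median of the members was 2.77 against 2.42.

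All 57 members passed the filter on low counts, with 292 to 70000 counts summed over the 3 T3WT libraries. Their log2 ratio of T3WT to contWT ran from 2.02 to 5.04, with a median of 2.42. The fold without a pseudocount, given for the 41 members with more than 9 counts in contWT, was 4.18 to 30.4 with a median of 7.10. Their log2 ratio of T3Homo to contHomo had a median of 0.02, against 0.01 over all genes tested. The log2 ratio of T3Homo to contWT, which compares the groups whose labels do not conflict, had a median of 0.00 and ran from -3.37 to 0.94. In log2 ratio to T3WT, T3Homo had a median of -2.58, against 0.00 over all genes tested.

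**Figure D1:**
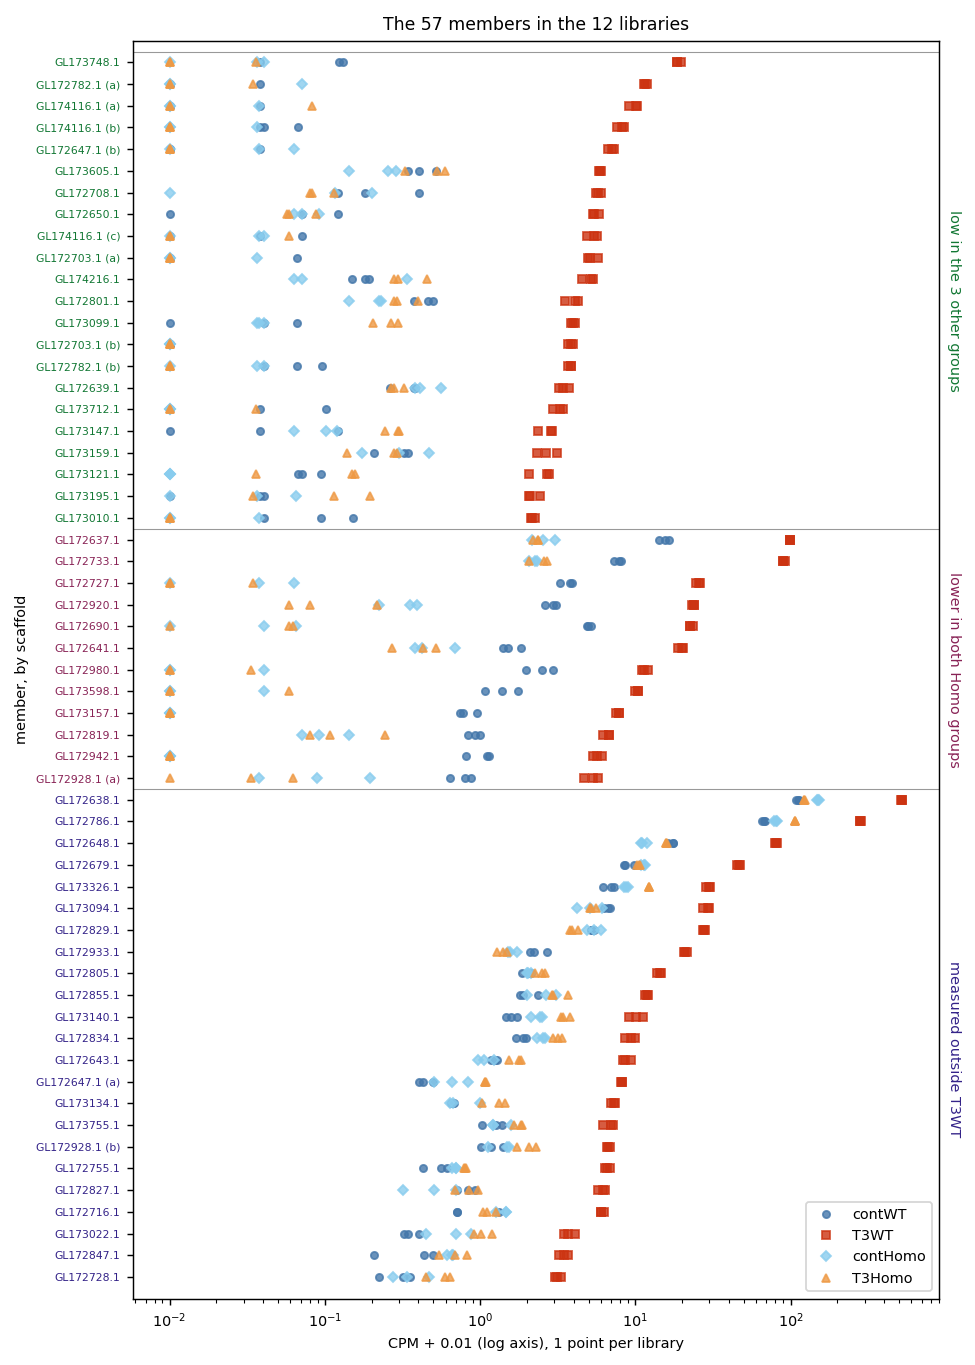
CPM of each of the 57 members in the 12 libraries, plotted as CPM + 0.01 on a log axis with 1 point per library. Members are named by scaffold, with letters in order of start where a scaffold holds more than 1, and are sorted within 3 level classes. The T3WT points lie to the right of the points of the 9 other libraries for every member.

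In each member the lowest T3WT library lay above the highest of the 9 other libraries. Genes with such separated T3WT libraries made up 25.6% of all genes tested. The smallest ratio of the lowest T3WT library to the highest other library was 2.32, for a gene on scaffold GL173326.1. The coefficient of variation of the T3WT libraries was 0.117% to 15.9%, with a median of 3.96%. The choice used these values, so nothing is read from the separation itself.

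In the edgeR quasi-likelihood test with Benjamini-Hochberg adjustment, a gene was called at an adjusted p under 0.05 and a change of at least 2-fold. For T3WT against contWT, all 57 members were called higher, and so were 12.8% of the genes tested. All 57 were called lower in T3Homo than in T3WT, where the background was 13.4%. For T3Homo against contHomo, 6 members were called higher, against a background of 2.77%, and 1 lower, against 3.83%. For contHomo against contWT, 16 members were called lower, with a background of 2.87%. For T3Homo against contWT, 7 members were called higher and 17 lower, with backgrounds of 5.12% and 6.1%. The interaction, which is the log2 change from contHomo to T3Homo less that from contWT to T3WT, was called negative in 49 members, against 12.4% of genes tested. The choice used every one of these contrasts, and nothing is read from the counts.

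**Figure D2:**
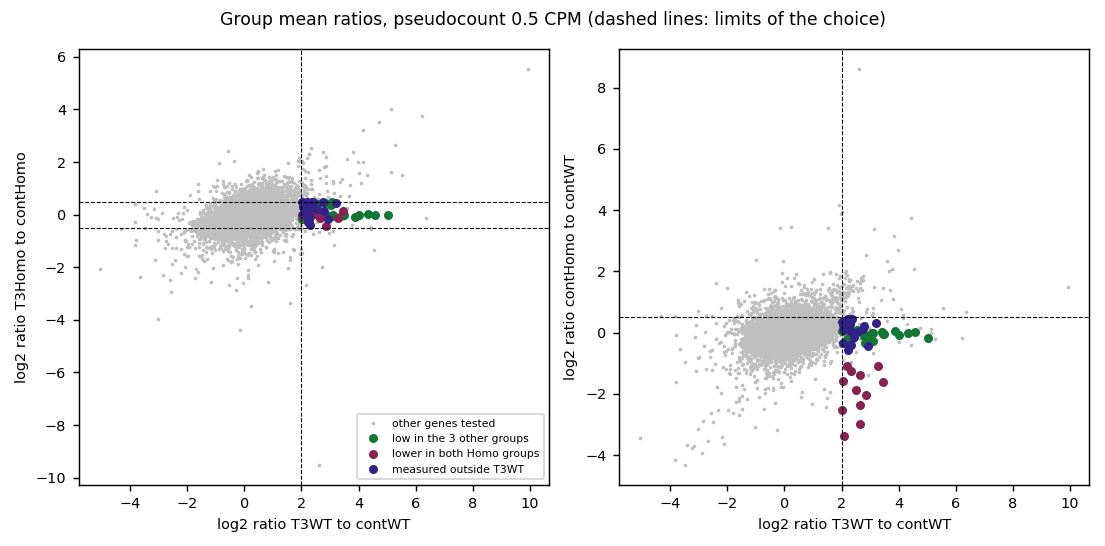
Log2 ratios of group means with 0.5 CPM added. The x axes give T3WT to contWT, and the y axes give T3Homo to contHomo (left) and contHomo to contWT (right). Grey points are other genes tested, coloured points are members by level class, and dashed lines are limits of the choice, which set where members can lie. The 12 members of the class lower in both Homo groups reach -3.38 on the right.

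The members fell into 3 classes by their levels outside T3WT, with class limits set after the values were seen. In 22 members the means of contWT, contHomo and T3Homo were all below 0.5 CPM. In 12 members, measured in contWT, the log2 ratio of contHomo to contWT was -1 or less. The remaining 23 were measured in contWT and in both Homo groups. In the sentences below, members other than the one with the largest ratio and the one with the highest level were picked after their values were seen, and are named by scaffold.

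The 22 members low in the 3 other groups had T3WT means of 2.17 to 18.9 CPM, with a median of 4.48 CPM. With 0.5 CPM added, the largest ratio of any member belonged to ENSXETG00000006829, which has 20 exons and lies on scaffold GL173748.1 at 141609 to 156012 (plus strand). It measured 0.0281, 0.114 and 0.122 CPM in contWT and 18.7, 18.5 and 19.6 CPM in T3WT. In contHomo it measured 0, 0.0307 and 0.0265 CPM, and in T3Homo 0, 0 and 0.0260 CPM. These low values stand for 0 to 4 counts per library, whereas each T3WT library held 783 to 892 counts. Its log2 ratio of T3WT to contWT was 5.04 with 0.5 CPM added and 6.66 with 0.1 CPM, and the order of members with so few contWT counts depends on that addition.

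Of the 22, 6 had at most 3 counts in each of the 3 other groups. One of them, on GL172703.1 at 1811002 to 1829222, had no count in any of the 9 other libraries and measured 3.98, 3.86 and 3.69 CPM in T3WT. Against a floor of 3 counts over the contWT group, it was at least 133-fold higher in T3WT. A gene on GL172647.1 starting at 1318326 measured 7.06, 6.67 and 7.25 CPM in T3WT and had no count in T3Homo, so it was at least 285-fold lower there, with the floor of 3 counts over T3Homo. For such genes, counts in the 3 other groups were at the limit of detection at this depth. A fall or a small rise from contHomo to T3Homo could not be measured, whereas a rise to the T3WT level was absent.

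The other end of the class held genes with small but measured levels outside T3WT. The member on GL173605.1 measured 0.393, 0.513 and 0.335 CPM in contWT, 6.01, 5.82 and 5.89 CPM in T3WT, 0.247, 0.276 and 0.133 CPM in contHomo, and 0.584, 0.316 and 0.520 CPM in T3Homo. It is 1 of the 6 members that were called higher in T3Homo than in contHomo. The added 0.5 CPM kept these 6 within the limit of the choice, which genes with a 2-fold ratio can meet only at such low levels. Their T3Homo means were 0.104 to 0.473 CPM, against T3WT means of 2.19 to 5.91 CPM. The member on GL173099.1, also among the 6, measured 0.0274, 0.0307 and 0.0265 CPM in contHomo and 0.257, 0.195 and 0.286 CPM in T3Homo, with 3.96, 4.07 and 3.84 CPM in T3WT. Its T3Homo libraries lay above its contHomo libraries without overlap and far below its T3WT libraries.

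The 12 members lower in both Homo groups were measured without T3 in the wild type and ranged in the Homo groups from no count to over 2 CPM. At most 3 counts were found in contHomo for 6 of them and in T3Homo for 6, with 5 of them in both. Their contWT means were 0.763 to 15.4 CPM and their T3WT means 5.25 to 99.5 CPM. The log2 ratio of contHomo to contWT ran from -3.38 to -1.08, with a median of -1.75. This ratio defined the class. Their fold from contWT to T3WT was 4.58 to 12.5, with a median of 7.12.

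The highest of the 12 in T3WT lies on GL172637.1 at 1718930 to 1724453. It measured 15.6, 16.4 and 14.1 CPM in contWT, 99.4, 99.5 and 99.6 CPM in T3WT, 2.55, 2.15 and 3.05 CPM in contHomo, and 2.17, 2.33 and 2.37 CPM in T3Homo. The 4 groups formed 3 levels, with the Homo groups overlapping each other. A gene of 4 exons and 432 exonic bases on GL172733.1 measured 7.30, 8.07 and 7.83 CPM in contWT, 89.1, 92.0 and 89.6 CPM in T3WT, 2.30, 2.24 and 2.04 CPM in contHomo, and 2.57, 2.70 and 2.05 CPM in T3Homo. Its level per length in T3WT, 209 CPM per kb of exon, was the highest among the 57.

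With 0.5 CPM added, the lowest ratio of contHomo to contWT belonged to a gene on GL172690.1 at 3197374 to 3225591. It measured 4.94, 5.19 and 4.87 CPM in contWT and 22.5, 22.7 and 23.5 CPM in T3WT. In contHomo it measured 0.0548, 0.0307 and 0 CPM and in T3Homo 0, 0.0486 and 0.0520 CPM, which are at most 2 counts per library. By the column labels, the wild-type libraries with and without T3 were thus separated from all Homo libraries. The separation of contWT from T3Homo holds by the titles too, but these groups differ in both genotype and T3. The titles give contWT and T3WT as untreated, and contHomo and T3Homo as T3-treated. Read that way, the split lies between untreated and T3-treated libraries.

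Genes on GL173157.1 and GL172942.1 had no count in any of the 6 Homo libraries. The first measured 0.730, 0.770 and 0.944 CPM in contWT and 7.85, 7.89 and 7.51 CPM in T3WT. With the floor of 3 counts over contHomo, its contWT mean was at least 29.0-fold higher. The second measured 1.10, 0.798 and 1.13 CPM in contWT and 5.68, 6.10 and 5.36 CPM in T3WT, and its contWT mean was at least 35.8-fold higher than contHomo. Of all genes tested, 7 had at least 1 CPM in both contWT and T3WT and at most 3 counts in each Homo group, and 4 of these 7 were members. The gene on GL173157.1, with a contWT mean of 0.815 CPM, was not among the 7, and the choice of members used the same means. A single member of the 12, on GL172920.1, was called lower in T3Homo than in contHomo, at 0.0701, 0.0486 and 0.208 CPM against 0.383, 0.215 and 0.345 CPM.

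The 23 members measured in all groups carried most of the RNA of the 57. They summed to 1147 ± 4.13 CPM in T3WT (SD over the 3 libraries of 1 RNA pool) of a total of 1599 ± 4.24 CPM for all members. In contWT all members summed to 287 ± 5.75 CPM, in contHomo to 300.1 ± 3.26 CPM and in T3Homo to 313 CPM, with libraries from 311 to 314 CPM. The sum hides opposite orders within it. The 12 members lower in both Homo groups summed to 43.6 ± 1.36 CPM in contWT, 5.84 ± 0.228 CPM in contHomo and 5.46 ± 0.312 CPM in T3Homo. The 23 summed to 241 ± 4.47, 293 ± 3.56 and 305 ± 1.34 CPM in the same groups. The class limit on contHomo to contWT fixed the order of the 12, so nothing is read from this contrast. The 2 highest members held 50.2% of the members' sum in T3WT and set the order of the total. Both were among the 23, at 112 and 67.1 CPM in contWT, 150 and 80.15 CPM in contHomo and 123 and 107 CPM in T3Homo. They made up most of the sum of the 23 in these groups and weighed most in its order. Without them the other 55 summed to 108 ± 1.46 CPM in contWT and 797 ± 2.64 CPM in T3WT. Their sums were 69.8 ± 2.02 CPM in contHomo and 82.4 ± 0.338 CPM in T3Homo, so contWT then lay above both Homo groups. The 55 include the 12 members whose order the class limit fixed. The choice also limited the ratio of contHomo to contWT from above alone, so nothing is read from this order.

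The member with the highest level was ENSXETG00000010783, a gene of 55 exons on the minus strand of GL172638.1 at 2498757 to 2554566. It measured 112, 114 and 109 CPM in contWT, 524, 518 and 521 CPM in T3WT, 147, 152 and 151 CPM in contHomo, and 125, 123 and 122 CPM in T3Homo. T3WT stood 4.66-fold above contWT, and contHomo lay above T3Homo in all libraries, with a log2 ratio of T3Homo to contHomo of -0.28. The second highest, on GL172786.1, had the opposite order of the Homo groups. It measured 68.7, 67.5 and 65.1 CPM in contWT, 285, 279 and 278 CPM in T3WT, 81.9, 80.5 and 78.1 CPM in contHomo, and 107.0, 107.4 and 107.3 CPM in T3Homo.

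**Figure D3:**
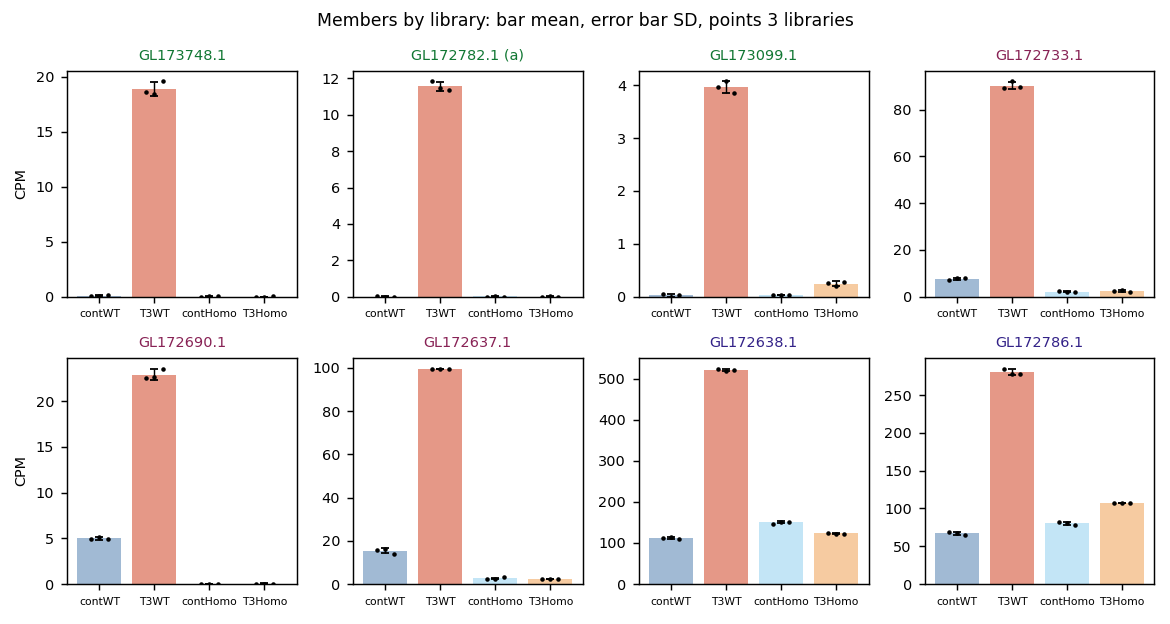
CPM of 8 members by group, on linear axes that start at 0. Bars are means, error bars are SD and points are the 3 libraries. The upper row starts with members near 0 outside T3WT, and the last panels show members measured in every group, in which T3WT is 521 and 281 CPM.

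In the 23, the log2 ratio of T3Homo to contHomo was above 0 in 18 and below 0 in 5, within the limit that the choice set. The contHomo mean lay above the contWT mean in 18, and the T3Homo mean lay above the contWT mean in 19. Members with a log2 ratio of contHomo to contWT of -1 or less were left out of this class, which tilts both counts upward. Nothing is read from these counts. The highest of the 3 means outside T3WT was 1.21 to 2.98 times the lowest, with a median of 1.60. The member on GL173140.1 sat near the upper limit of the choice, with means of 1.58 ± 0.126 CPM in contWT, 10.2 ± 1.07 CPM in T3WT, 2.35 ± 0.198 CPM in contHomo and 3.50 ± 0.267 CPM in T3Homo. The member on GL172933.1 ran the other way outside T3WT, at 2.33 ± 0.322 CPM in contWT, 21.0 ± 0.587 CPM in T3WT, 1.59 ± 0.115 CPM in contHomo and 1.38 ± 0.0985 CPM in T3Homo. Members that met the same limits thus differed in the order of their 3 lower groups.

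The fold from contWT to T3WT in these 23 was 4.18 to 18.8, with a median of 6.42. The 18.8-fold member, on GL172647.1 at 701183 to 728236, measured 0.421, 0.484 and 0.396 CPM in contWT and 8.23, 8.08 and 8.17 CPM in T3WT. It measured 0.493, 0.645 and 0.822 CPM in contHomo and 1.07, 1.07 and 1.06 CPM in T3Homo. Its T3Homo libraries all lay above those of contHomo, with a log2 ratio of 0.44 after 0.5 CPM was added. In the edgeR test its log2 change was 0.7, and it was not called. Among all 57, the 8 members not called in the interaction each had at most 3 counts in contHomo or in T3Homo.

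The members had a median T3WT level of 6.99 CPM, against 8.41 CPM over all genes tested. The highest member ranked 249 among the genes tested by T3WT level. Of the 57, 24 lay above the median T3WT level of all genes tested. The choice used these levels, so nothing is read from them. A T3WT mean of at least 10 CPM was reached by 21, of at least 50 CPM by 5 and of at least 100 CPM by 2. The share of all genes tested at these levels was not counted. All 57 together made up 0.195% of all CPM in T3WT and 0.0265% in contWT. Of the 443 genes tested with at least 1 CPM in T3WT alone, 29 were members.

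The choice did not use gene structure or position directly. CPM are not scaled by gene length, so the minimum level of 2 CPM and the class limit of 0.5 CPM can depend on length. The genes tested include genes below that minimum. The members had a median of 12 exons (1 to 67) and 1829 exonic bases (345 to 9324), against 9 exons and 1781 bases over all genes tested. The 12 members lower in both Homo groups had a median of 6.5 exons (3 to 53) and 1117 exonic bases (345 to 6219). The medians were 12 exons and 1599 bases in the 22 members low in the 3 other groups. In the 23 measured in all groups they were 14 exons and 2598 bases, and differences between the classes were not tested. Genes with a single exon numbered 2, which is 3.51% of members against 3.53% of genes tested. None of the 57 had exons that overlapped another gene, against 1.13% of genes tested. The span of 1, on GL172641.1, overlapped a gene on the opposite strand, as did 369 of the 13172 genes tested. By strand, 24 lay on plus and 33 on minus, which is 42.1% on plus against 49.3% of genes tested, with no test of the difference. Whether the authors' counting used strand is not given in the sources used here.

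The members lay on 51 scaffolds, 5 of which held more than 1. Neighbouring members formed 4 adjacent pairs of 7 genes, on 3 scaffolds and each on 1 strand, all in the class low outside T3WT. On GL174116.1, a scaffold with 5 genes tested, 3 members lay at 4232 to 6390, 11508 to 13300 and 27901 to 29699. The first measured 10.2, 9.08 and 10.0 CPM in T3WT, the second 8.20, 8.51 and 7.60 CPM and the third 5.39, 4.86 and 5.62 CPM. Each had a mean below 0.1 CPM in every other group. The 2 other genes tested there measured 0.466 and 0.713 CPM in T3WT and had at most 1 count in each other group. With log2 ratios of T3WT to contWT of 0.92 and 1.25, they missed the choice by that ratio as well as by level.

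On GL172703.1 the 2 members lay 3784 bases apart, at 1789028 to 1807217 and 1811002 to 1829222. The next gene, at 1835044 to 1840634, measured 1.65 ± 0.275 CPM in T3WT and at most 2 counts in each other group, and missed the choice only by its level, with a log2 ratio of 2.05. Beyond it, a gene at 1854919 measured 3.50 ± 0.385 CPM in contWT and 3.41 ± 0.195 CPM in T3WT. On GL172782.1 the 2 members lay 29428 bases apart, between a gene at 303.5 CPM in contWT and 339 CPM in T3WT and one at 40.8 CPM in contWT and 15.2 CPM in T3WT. The high T3WT levels of the runs on GL172703.1 and GL172782.1 thus ended within a few genes on either side.

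Adjacent members shared exon lengths. The GL172703.1 pair shared 7 distinct lengths, of 14 and 16 in the 2 genes. The GL172782.1 pair shared 5, of 7 and 18, and each pair on GL174116.1 shared 3, of 4 and 5. Genes that share exon lengths may be similar copies, and reads could have been split between them. Neither was tested, and shared lengths were not counted for other neighbouring genes. The single levels of these 7 are therefore to be read with care. Around all members, 98 tested genes that were not members flanked them. For T3WT against contWT, 20 of them were called higher, which is 20.4% against 12.8% over all genes tested, with no test of the difference. Their median log2 ratio was 0.26 (-2.73 to 6.35). Of the 23 genes flanking the 12 members lower in both Homo groups, 0 had a log2 ratio of contHomo to contWT of -1 or less, and their median was 0.08.

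**Figure D4:**
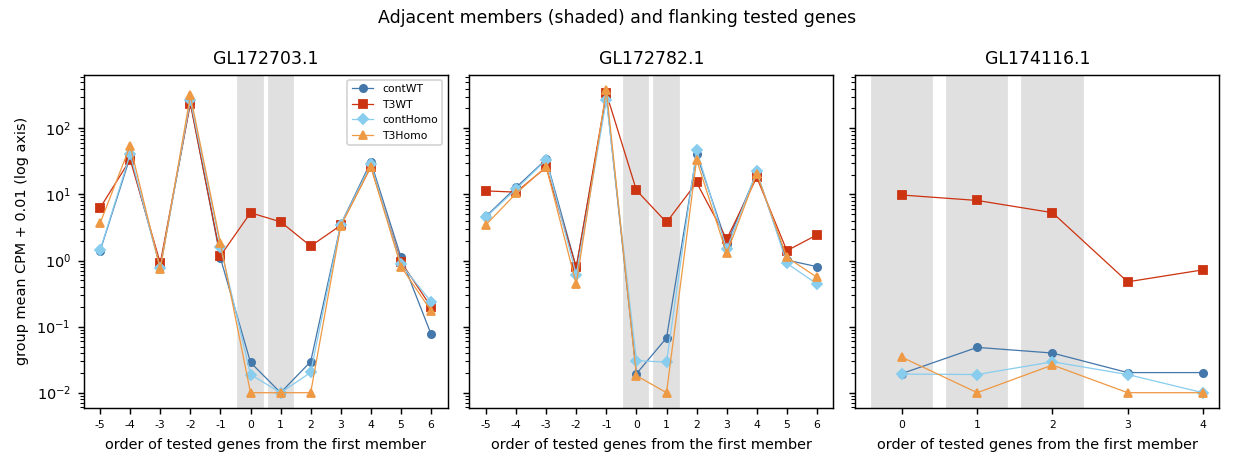
Group mean CPM + 0.01 (log axis) of tested genes in their order along the 3 scaffolds with adjacent members. Grey shading marks the members, and 0 on the x axis is the first of them. The T3WT line stands above the other 3 at the members and rejoins them at most flanking genes of GL172703.1 and GL172782.1.

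The members are 29.4% of the 194 genes with a log2 ratio of T3WT to contWT of at least 2 and a highest mean of at least 2 CPM. Another 51 genes met the limit on T3Homo to contHomo but had a contHomo mean raised by 0.5 log2 units or more over contWT. In 56 genes the ratio of T3Homo to contHomo was from 0.5 to 2, in 17 it was at least 2, and in 13 it was -0.5 or less. The ratio of T3Homo to contHomo divided these groups, so the difference in their Homo levels follows from the limits, and the medians are a description. The members had medians of 0.763, 6.99, 0.306 and 0.312 CPM in contWT, T3WT, contHomo and T3Homo, and the 17 genes had 2.83, 49.0, 4.15 and 37.8 CPM. With the genotypes exchanged in the rule, 1 gene met it, from the 22 genes with a log2 ratio of T3Homo to contHomo of at least 2, whereas the 57 came from 194.

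The limits of the choice cut through a continuous range. Just inside the limit of 2 on the log2 ratio of T3WT to contWT were genes at 2.016, 2.03 and 2.032, and just outside it were genes at 1.999, 1.997 and 1.946 that met the other limits. The last of these measured 1.56 CPM in contWT and 7.44 CPM in T3WT, with 3.05 CPM in T3Homo. Of the 57, 24 lay close to at least 1 limit, 13 of them with a ratio of T3Homo to contHomo over 0.4 in size and 10 with a ratio of T3WT to contWT under 2.1.

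The choice was repeated with the libraries of 1 replicate number left out of all 4 groups, and the values were then read in the libraries left out. With replicate 1 left out, 56 genes were chosen, and 48 of them reached a log2 ratio of T3WT to contWT of at least 2 in the left-out libraries. With replicate 2 left out these counts were 52 and 47, and with replicate 3 they were 55 and 46. All limits on the 3 ratios were met by 36, 40 and 35 genes. The lowest left-out ratio of T3WT to contWT was 1.53, so all chosen genes were higher in the left-out T3WT library. The left-out libraries come from the same RNA pools, and this repeat measures the error of library preparation and sequencing alone.

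**Figure D5:**
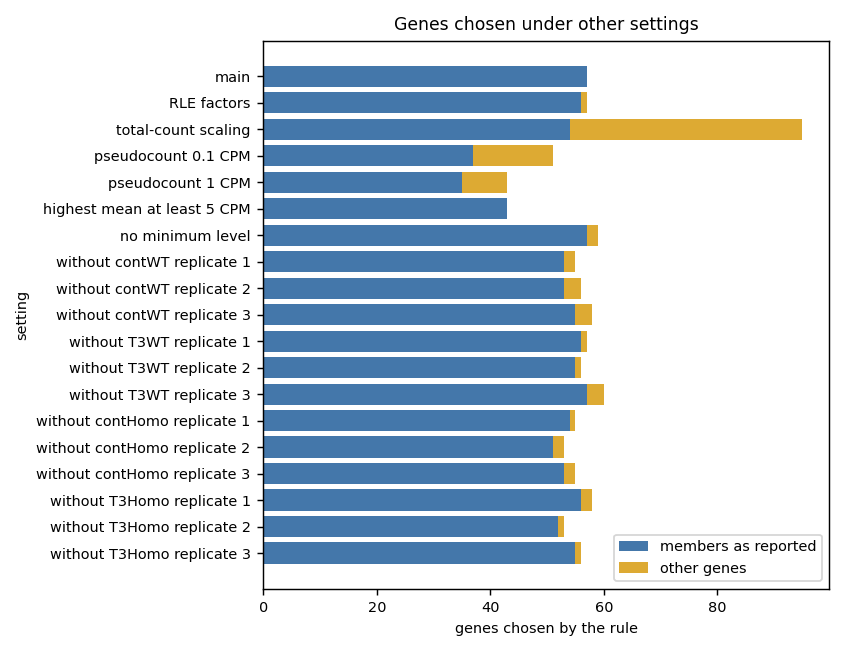
Number of genes chosen (x axis) under each setting (y axis), divided into the 57 members and other genes. Leaving out 1 library gave 53 to 60 genes, and total-count scaling gave 95, of which 54 were members.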

How the data were processed

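The deposited table gives counts per gene for 12 libraries, with scaffold, exon starts and ends and strand for each gene. Per the submitters' processing notes, STAR 2.5.3a and featureCounts 1.4.6-p3 were used; for build, annotation release, strand setting and reads with several matches, the choice is not given in the sources used here, so coordinates are as the authors' table gives them.

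From these counts, CPM were computed with TMM factors in edgeR 4.0.16 (R 4.3.3) over all 19921 genes. Groups follow the column labels. Calls came from the edgeR quasi-likelihood test on all 12 libraries, with 1 coefficient per group and no covariate, after filterByExpr (13172 genes), with Benjamini-Hochberg adjustment over all genes tested, an adjusted p below 0.05 and a change of at least 2-fold. P-values measure only the spread between technical replicates of 1 RNA pool. Libraries of a group differed by more than sampling noise (chi-square per degree of freedom 1.26 or more; largest p of the pairwise chi-square tests 1.09e-78) and were counted separately. A floor of 3 counts over a group is 0.0290 CPM in contWT, 0.0223 in T3WT, 0.0281 in contHomo and 0.0245 in T3Homo, and covers counting error only.

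The members, the level classes and the gene lists were chosen with earlier results of these data known. The 13 gene lists (170 symbols) could not be applied, since no ID had a symbol. The rule for naming then left 2 IDs, the member with the largest ratio and the member with the highest T3WT level. Alternatives were RLE factors, total-count scaling, no filter, DESeq2 1.42.0, a replicate block, adjusted p alone, glmTreat, other pseudocounts and levels, and leaving out libraries. Sequences were not used here.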

Additional observations from a re-analysis of the deposited data

How the results depend on the processing

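The number of genes chosen was 57 with RLE factors (56 shared with the 57), 51 with a pseudocount of 0.1 CPM (37 shared), 43 with 1 CPM (35 shared), 43 with a minimum level of 5 CPM and 59 with no minimum. Total-count scaling gave 95 genes, 54 of them shared, and moved the median of all genes as given above. Leaving out 1 library gave 53 to 60 genes, and leaving out 1 replicate number gave 52 to 56. For T3Homo against contHomo, 7 members were called in either direction (6.6% of all genes tested). The counts were 23 at an adjusted p alone (63.4% of all genes) and 2 with glmTreat (2.8% of all genes). Leaving out 1 library gave 4 to 8 (6.52% to 6.72% of all genes), with 4 reached without T3Homo replicate 1. With the replicate block, 57 members were called in T3WT against contWT (12.9% of all genes) and 7 in T3Homo against contHomo (6.62%). It gave 16 in contHomo against contWT (2.85%) and 49 in the interaction (12.3%). These member counts were the same as without the block. The choice used these contrasts, so nothing is read from the counts. Deviations from the group means, over all genes tested, correlated over 0.1 in 0 of 18 same-number pairs of libraries (-0.0216 to 0.0380). A small effect shared by libraries of 1 number could be missed by this check. Depth limits the 16 members with at most 3 counts in each Homo group. For these, a fall or a small rise from contHomo to T3Homo could not be measured, whereas a rise to the T3WT level was absent.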
